A study of Mus musculus with 29 samples.

Results

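The E2F family of transcription factors was followed in the mouse ovary through its 8 genes, E2f1 to E2f8. The members are a list of gene symbols, by a rule that uses no measured value, although the list was drawn up with earlier results of these data known. All 8 were found among the 51912 gene IDs of the count table. Gene expression had been measured by bulk RNA sequencing of dissociated ovary cells in 29 samples. The wild-type samples are labelled Cdkn1b +/+. The others are labelled Cdkn1b -/-, a homozygous loss of the gene that encodes p27Kip1, an inhibitor of cyclin-dependent kinases, and they are called Cdkn1b-null. Ovaries were taken before birth, at 13.5 days (E13.5) and 18.5 days (E18.5) of embryonic development, and after birth, on day 8 (PND8) and in week 12 (12wk). There were 4 wild-type samples per age, and the Cdkn1b-null samples numbered 3, 4, 3 and 3. The dissociated cells were not sorted by type. The genotype is that of the whole animal, so the ovary's own response cannot be told apart from that of the rest of the body. The labels used here do not give a strain, and they do not say that replicates came from separate animals, so p-values measure the spread between these samples.

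E2F proteins bind gene promoters and set the transcription of the genes that a cell needs to enter and complete DNA replication. In resting cells the pocket proteins (Rb1, Rbl1 and Rbl2) hold E2f1 to E2f5 in a repressive state. Cyclin-dependent kinases release these E2Fs by phosphorylating the pocket proteins. p27Kip1 inhibits those kinases and so acts upstream of E2f1 to E2f5. E2f1, E2f2 and E2f3 are grouped as activators, E2f4, E2f5 and E2f6 as classical repressors, and E2f7 and E2f8 as atypical repressors, which bind DNA without a DP partner and are themselves transcribed from E2F-regulated promoters late in G1 and in S phase. In the fetal ovary germ cells stop mitosis and enter meiosis, and after birth the granulosa cells of growing follicles divide.

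Library depth was 14095601 to 48213177 counts with a median of 24072433, so that 3 counts, taken as the smallest level a library can show, were 0.0622 to 0.213 CPM. CPM values were scaled by TMM over the 29 libraries. This floor covers counting error only, and the lowest value of any E2F gene in any library, 2.80 CPM for E2f7, lay above it. Cdkn1b itself was lower in the Cdkn1b-null than in the wild-type samples at each age without overlap, at 19.7%, 12.3%, 48.3% and 27.9% of the wild-type mean from E13.5 to 12wk (adjusted p = 0.0114, 1.12e-05, 0.0216 and, at 12wk, 0.211). Reads of the gene thus remained in every Cdkn1b-null library, at 4.30 to 80.7 CPM, and the labels used here do not say which part of it was deleted. Markers of the granulosa, stromal and endothelial lineages were present in every library. In 5 fetal libraries the red blood cell markers were high. Their sum over 8 markers was 97970 CPM in wild-type replicate 3 at E13.5 against 3057 to 4282 CPM in wild-type replicates 1, 2 and 4. At E18.5 it was 4426 to 10940 CPM in replicates 1 and 3 of both genotypes against 445 to 1920 CPM in replicates 2 and 4. A sixth library, Cdkn1b-null replicate 3 at E13.5, had a sum of 8 meiotic germ cell markers of 703 CPM against 125 and 209 CPM in the other Cdkn1b-null libraries of that age. Where a result below turned on these 6 libraries, its value without them stands beside it. The library names point to combined projects and write the fetal ages in another form than the postnatal ones. They do not say whether fetal and postnatal libraries shared a sequencing run. Except for Cdkn1b-null replicate 3 at E13.5, every fetal library had fewer counts than every postnatal library. Each step from E18.5 to PND8 compares fetal with postnatal libraries. The part of a possible separate run in it was not tested.

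In the GENCODE M21 annotation of GRCm38, which may not be the authors' annotation, the activators were E2f1 (ENSMUSG00000027490) at chr2:154559407-154569892 on the minus strand, E2f2 (ENSMUSG00000018983) at chr4:136172394-136196057 on the plus strand and E2f3 (ENSMUSG00000016477) at chr13:29906575-29986063 on the minus strand. The classical repressors were E2f4 (ENSMUSG00000014859) at chr8:105297663-105305370, E2f5 (ENSMUSG00000027552) at chr3:14578641-14606309 and E2f6 (ENSMUSG00000057469) at chr12:16810963-16839742, all on the plus strand. The atypical repressors were E2f7 (ENSMUSG00000020185) at chr10:110745439-110787384 on the plus strand and E2f8 (ENSMUSG00000046179) at chr7:48866429-48881596 on the minus strand. Exons of E2f8 overlap those of Gm2788 on the other strand by 610 bases. The overlap is 86 bases between E2f7 and 1700020G17Rik and 26 bases between E2f5 and 1810022K09Rik. Strandedness is not stated, so some reads of these pairs cannot be told apart. Gene-level counts also merge the forms that E2f3 makes from alternative starts, one an activator and one a repressor.

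RefSeq promoter windows (GRCm38.p6, from 250 bases before to 50 bases after an annotated start) were given for 6 of the 8 genes, with 8 windows in all, and E2f4 and E2f5 had no entry. Each was searched on both strands for an 8-letter E2F word in the forms TTTCCCGC, TTTCGCGC, TTTGCCGC and TTTGGCGC. This word was present in 3 of the 8 windows, those of E2f2, E2f3 and E2f7, and in 2.27% of 32851 windows of all genes. The E2f1 window (chr2:154569377-154569676, minus strand) lay wholly after the gene start at 154569892 in the annotation above. For E2f1 the bases before that start were thus not searched. The 7-letter word, which drops the first T and so overlaps each 8-letter match, added E2f8 and was present in 9.57% of all windows. The 4 windows are shown because E2f7 and E2f8 carry the largest differences at E18.5, E2f2 the largest spread, and E2f3 the start whose word lies 11 bases before it. Sequences read 5′ to 3′ on the gene's strand, and capitals mark every match of the 7- or 8-letter word on either strand.
E2f7, chr10:110745189-110745488, plus strand: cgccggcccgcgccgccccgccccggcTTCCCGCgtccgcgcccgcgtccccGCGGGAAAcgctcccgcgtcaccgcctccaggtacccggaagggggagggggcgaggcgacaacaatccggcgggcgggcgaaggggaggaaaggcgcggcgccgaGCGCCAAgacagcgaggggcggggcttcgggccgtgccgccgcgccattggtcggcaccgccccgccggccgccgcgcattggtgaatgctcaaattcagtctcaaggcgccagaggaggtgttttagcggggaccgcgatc
E2f8, chr7:48881547-48881846, minus strand: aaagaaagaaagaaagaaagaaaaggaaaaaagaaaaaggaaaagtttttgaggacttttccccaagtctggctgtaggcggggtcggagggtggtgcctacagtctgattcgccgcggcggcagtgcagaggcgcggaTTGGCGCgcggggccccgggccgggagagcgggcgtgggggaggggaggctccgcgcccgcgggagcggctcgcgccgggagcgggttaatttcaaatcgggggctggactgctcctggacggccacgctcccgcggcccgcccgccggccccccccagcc
E2f2, chr4:136172024-136172323, plus strand: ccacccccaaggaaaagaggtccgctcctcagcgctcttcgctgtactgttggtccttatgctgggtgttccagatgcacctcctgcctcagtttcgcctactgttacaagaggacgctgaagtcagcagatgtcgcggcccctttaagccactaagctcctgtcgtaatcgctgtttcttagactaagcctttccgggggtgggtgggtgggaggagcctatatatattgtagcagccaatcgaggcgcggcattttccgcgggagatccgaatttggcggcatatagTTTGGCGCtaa
E2f3, chr13:29986014-29986313, minus strand: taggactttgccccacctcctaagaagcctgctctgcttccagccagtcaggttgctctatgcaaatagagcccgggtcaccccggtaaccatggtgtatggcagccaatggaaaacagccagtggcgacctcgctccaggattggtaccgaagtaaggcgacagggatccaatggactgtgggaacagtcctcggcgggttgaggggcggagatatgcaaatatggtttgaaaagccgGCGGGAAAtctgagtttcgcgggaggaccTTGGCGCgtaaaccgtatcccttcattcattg
E2f7 held 3 matches of the 7-letter word, at bases 28 to 34, 53 to 59 and 159 to 165 of its window, and the middle one was also an 8-letter match. E2f8 held 1, at bases 140 to 146. A match describes these letters and was not tested as a binding site.

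Transcripts of all 8 E2F genes were detected in every library at every age, with E2f5 the highest of the family before birth and E2f4 the highest after it. Levels between genes are given per kb of exon. E2f5, a repressor that works with the pocket proteins, was the highest per kb at E13.5, at 24.4 ± 4.45 CPM per kb in wild type (SD, n = 4), followed by E2f4, its closest relative, at 13.8 ± 4.29 (SD, n = 4). By exon length their ranges did not overlap at E13.5 and overlapped at E18.5, where the means were 18.0 ± 2.41 and 10.7 ± 3.52 CPM per kb (SD, n = 4 each). At E13.5 the other members followed between 4.42 ± 4.24 (E2f2) and 1.56 ± 0.346 (E2f7) CPM per kb in wild type. The third place of E2f2 came from wild-type replicate 3, which stands apart, and without that library E2f2 was at 2.31 CPM per kb and seventh of the 8. Of these, E2f2, E2f8, E2f3, E2f6 and E2f1 overlapped their neighbours in the order, and E2f7 did not overlap E2f1, the next above it. At PND8 and at 12wk E2f4 led in both genotypes and its range did not overlap that of the next gene. In wild type its level was 20.8 ± 1.36 CPM per kb at PND8 and 18.5 ± 2.51 at 12wk (SD, n = 4 each). The next gene was E2f1 at PND8 (12.8 ± 1.68 CPM per kb, SD, n = 4) and E2f6 at 12wk (7.42 ± 0.354, SD, n = 4). E2f7 was the lowest member per kb in 7 of the 8 groups, and in Cdkn1b-null ovaries at PND8 E2f2 was lowest (4.22 ± 0.716 against 5.28 ± 0.832 CPM per kb for E2f7, SD, n = 3 each, ranges overlapping). These places depend on the length used, which for E2f6 was 5663 bases of exon against 3018 bases in its longest transcript. By the longest transcript E2f5 led before birth and E2f4 after it as well, but E2f6 was next at PND8 in wild type (20.1 ± 2.01 against 14.7 ± 1.92 CPM per kb for E2f1, SD, n = 4 each, no overlap), E2f7 was lowest in 4 groups and E2f2 in the 4 postnatal ones, and at E13.5 in wild type E2f5 overlapped E2f4 and E2f7 overlapped E2f1.

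**Figure D1:**
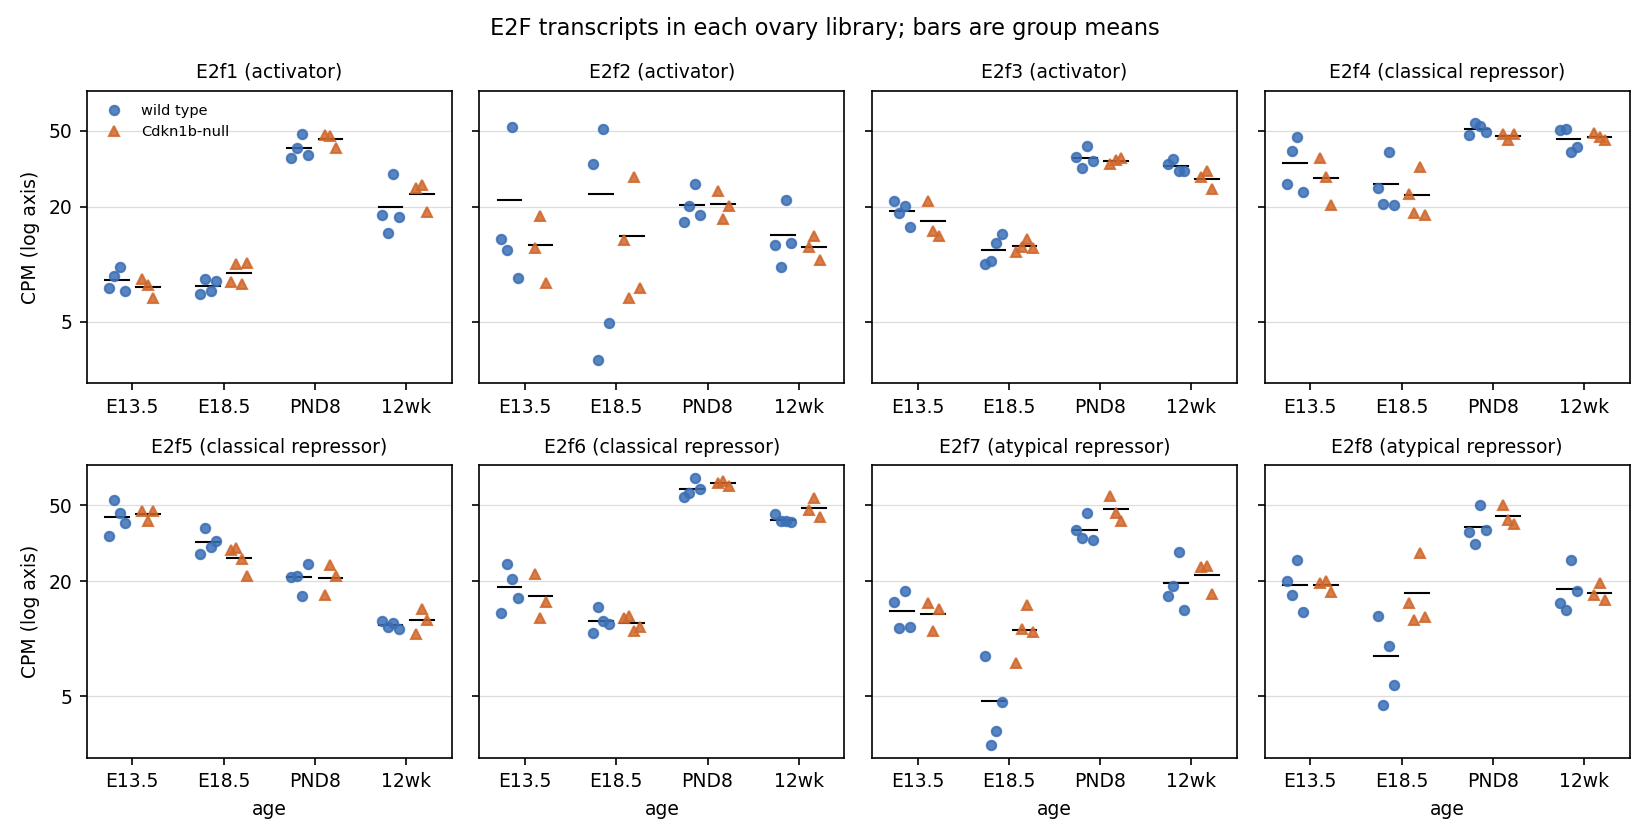
CPM of each E2F gene in each library on a log axis, by age, with circles for wild type, triangles for Cdkn1b-null and bars for group means. E2f1, E2f3, E2f4, E2f6, E2f7 and E2f8 are higher at PND8 than at E18.5 in both genotypes, the mean of E2f5 is lower at each later age, and E2f2 spreads from 3.15 to 51.0 CPM in wild type at E18.5.

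Among the activators, E2f1 was low before birth and high in the first postnatal week. E2f1 drives S-phase entry. In wild type it was at 7.49, 8.71, 9.69 and 7.29 CPM at E13.5 and at 6.95, 8.36, 7.29 and 8.21 CPM at E18.5. At PND8 it was at 36.0, 40.5, 47.8 and 37.2 CPM, and at 12wk at 18.2, 14.6, 29.6 and 17.6 CPM. Every PND8 library was above every library of the other ages, and the 2 fetal ages overlapped. From E18.5 to PND8 E2f1 rose 4.90-fold (log2 fold change 2.29, SE 0.135, adjusted p = 2.61e-07), and from PND8 to 12wk it fell by 0.93 on the log2 scale (SE 0.203, adjusted p = 0.00914). Cdkn1b-null ovaries showed the same steps, with log2 fold changes of 2.26 (adjusted p = 1.36e-07) and -0.87 (adjusted p = 0.00344). E2f3 fell from 18.9 ± 2.46 CPM at E13.5 to 11.9 ± 2.08 at E18.5 in wild type (SD, n = 4 each, log2 fold change -0.68, SE 0.186, adjusted p = 0.0172). That call was lost without wild-type replicate 1 at E13.5 (-0.62, adjusted p = 0.056) and without the libraries that stand apart (-0.55, adjusted p = 0.131). E2f3 then rose 2.83-fold to 36.0 ± 3.96 CPM at PND8 (SD, n = 4, adjusted p = 7.58e-06), and at 12wk it was at 32.7 ± 2.37 CPM (SD, n = 4, log2 fold change -0.05, 95% confidence interval -0.27 to 0.17, adjusted p = 0.725).

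The classical repressors moved in different directions. E2f5 had a lower mean at each later age in wild type, from 43.4 ± 7.93 CPM at E13.5 to 32.1 ± 4.30, 20.9 ± 3.17 and 11.9 ± 0.529 CPM at E18.5, PND8 and 12wk (SD, n = 4 each). The first of these steps did not pass the test (log2 fold change -0.45, adjusted p = 0.0624) and passed without wild-type replicate 1 at E13.5 (-0.55, adjusted p = 0.0416) or replicate 2 at E18.5 (-0.55, adjusted p = 0.0396). E2f5 then fell by 0.71 from E18.5 to PND8 (SE 0.155, adjusted p = 0.00178) and by 0.73 from PND8 to 12wk (SE 0.129, adjusted p = 0.00324). In Cdkn1b-null ovaries it fell over all 3 steps, by 0.75, 0.40 and 0.65 (adjusted p = 0.00412, 0.0389 and 0.0301). The second of these calls was lost without replicate 1, 2 or 3 at E18.5 or replicate 1 or 4 at PND8 (adjusted p = 0.0564 to 0.151), and without the libraries that stand apart (-0.37, adjusted p = 0.143). The third was lost without replicate 3 or 4 at PND8 or replicate 1 or 4 at 12wk (adjusted p = 0.0565 to 0.114). E2f4, the E2F that dominates in many resting cells, rose 1.84-fold from E18.5 to PND8 in wild type, from 26.2 ± 8.64 to 51.0 ± 3.34 CPM (SD, n = 4 each, adjusted p = 0.00134), and 1.96-fold in Cdkn1b-null (adjusted p = 0.000619). E2f6, which represses germ-line and G1/S genes as part of a Polycomb complex, was at 13.7, 24.6, 20.4 and 16.4 CPM at E13.5 and rose from 10.7, 14.7, 12.3 and 11.9 CPM at E18.5 to 55.0, 57.8, 69.0 and 60.9 CPM at PND8 in wild type. The E18.5 and PND8 libraries did not overlap (log2 fold change 2.19, SE 0.134, adjusted p = 3.27e-07). E2f6 then fell by 0.44 to 42.0 ± 2.01 CPM at 12wk (SD, n = 4, SE 0.078, adjusted p = 0.00336). The step from E13.5 to E18.5 was -0.61 in wild type (adjusted p = 0.0517) and passed without replicate 1 at E13.5 (-0.74, adjusted p = 0.0319) or replicate 2 at E18.5 (-0.71, adjusted p = 0.0456), and in Cdkn1b-null it was -0.46 (adjusted p = 0.111) and passed without replicate 3 at E13.5 (-0.63, adjusted p = 0.0361). In Cdkn1b-null ovaries E2f6 rose by 2.37 from E18.5 to PND8 (adjusted p = 1.49e-08) and fell by 0.34 to 12wk (adjusted p = 0.0192, lost without replicate 1, 3 or 4 at PND8 or replicate 1 at 12wk, adjusted p = 0.0553 to 0.0787).

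Of the 8 members, E2f7, an atypical repressor, had the largest rise from E18.5 to PND8 in wild type. The rise of E2f8, the other atypical repressor, was below those of E2f1 and E2f6 (4.90-fold and 4.57-fold). E2f7 and E2f8 act as a pair to shut off E2F targets after S phase. In wild type E2f7 was at 15.6, 11.4, 17.7 and 11.5 CPM at E13.5, at 8.14, 2.80, 3.30 and 4.67 CPM at E18.5, at 37.2, 33.6, 45.2 and 33.0 CPM at PND8, and at 16.8, 18.9, 28.6 and 14.1 CPM at 12wk. The E18.5 libraries were below all others and the PND8 libraries above all others. E2f7 fell by 1.59 from E13.5 to E18.5 (SE 0.342, adjusted p = 0.00518), rose 7.44-fold to PND8 (log2 fold change 2.90, SE 0.291, adjusted p = 7.69e-06) and fell by 0.84 to 12wk (SE 0.207, adjusted p = 0.015). E2f8 was at 20.1, 16.9, 26.0 and 13.9 CPM at E13.5, at 13.2, 4.51, 9.13 and 5.71 CPM at E18.5, at 36.0, 31.2, 49.8 and 37.2 CPM at PND8, and at 15.3, 14.1, 25.9 and 17.9 CPM at 12wk. Its E18.5 libraries were again below all libraries of the other ages. E2f8 fell by 1.26 (SE 0.340, adjusted p = 0.0163), rose 4.49-fold (log2 fold change 2.17, SE 0.293, adjusted p = 6.56e-05) and fell by 0.99 (SE 0.211, adjusted p = 0.00799) over the same steps. The first of the E2f8 calls was lost without wild-type replicate 4 at E18.5 (-1.11, adjusted p = 0.0513) and kept without the libraries that stand apart (-1.70, adjusted p = 0.0049). In Cdkn1b-null ovaries the first step was -0.28 for E2f7 (95% confidence interval -0.82 to 0.27, adjusted p = 0.423) and -0.14 for E2f8 (-0.75 to 0.48, adjusted p = 0.739). The second step was a rise of 2.04 and 1.29 there (adjusted p = 1.16e-05 and 0.00156) and the third a fall of 1.05 and 1.24 (adjusted p = 0.00352 and 0.00103). Consecutive steps share the libraries of the age between them. The step from E18.5 to PND8 also goes from fetal to postnatal libraries, and the part of a possible separate sequencing run was not tested.

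Counted over the family in wild type, 0 members rose and 3 fell from E13.5 to E18.5 (E2f3, E2f7 and E2f8), where 34% of all genes tested passed. From E18.5 to PND8 6 rose and 1 fell (E2f5), where 74.6% of all genes passed. From PND8 to 12wk 0 rose and 5 fell (E2f1, E2f5, E2f6, E2f7 and E2f8), where 30.5% passed. In Cdkn1b-null ovaries 1 member fell over the first step (E2f5, 30.2% of all genes passed), 6 rose and 1 fell over the second (77.4%), and 6 fell over the third (29.1%), the sixth being E2f2 with a log2 fold change of -0.65 (SE 0.156, adjusted p = 0.0205). The E2f2 call of the third step was lost without replicate 1 or 4 at either age (adjusted p = 0.0511 to 0.0735). The median log2 fold change over the 8 genes was -0.53, 1.83 and -0.59 for the 3 steps in wild type, against 0.01, 0.01 and -0.01 over all genes tested.

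Relative to each other, the classical repressors supplied most of the summed E2F level per kb before birth and less of it at PND8 (shares were not tested). Their share was 72.9% ± 6.12 at E13.5 and 73.8% ± 8.62 at E18.5 in wild type (SD, n = 4 each), and 55.6% ± 3.50 at PND8 and 61.2% ± 6.25 at 12wk (SD, n = 4 each). The activator share was 18.1% ± 4.77 and 21.4% ± 7.30 at the fetal ages and 30.1% ± 1.94 and 28.5% ± 3.88 at the postnatal ages (SD, n = 4 each). In Cdkn1b-null ovaries it was 15.3% ± 2.17, 20.5% ± 2.17, 30.9% ± 0.927 and 27.2% ± 1.76 from E13.5 to 12wk (SD, n = 3, 4, 3 and 3). The activator ranges of the 2 genotypes overlapped at each age. Without the libraries that stand apart, the activator share at E18.5 was 13.5% and 17.2% in the 2 remaining wild-type libraries and 18.4% and 21.9% in the 2 Cdkn1b-null ones, which did not overlap, and the classical repressor share was 78.5% and 83.6% against 66.9% and 72.0%. At E13.5 the activator means without them were 16.0% and 14.2%. The share of E2f7 and E2f8 was 4.78% ± 2.18 in wild type and 11.2% ± 2.34 in Cdkn1b-null at E18.5 (SD, n = 4 each), with ranges of 2.95% to 7.94% and 9.34% to 14.4% that did not overlap, and without the libraries that stand apart it was 2.95% and 4.30% against 9.61% and 11.3%. At the other ages the ranges of this share overlapped between genotypes. The shares depend on the exon lengths and on E2f3. With E2f3 left out of both sides the activator share was 12.5% at E13.5 and 23.7% at PND8 in wild type.

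**Figure D2:**
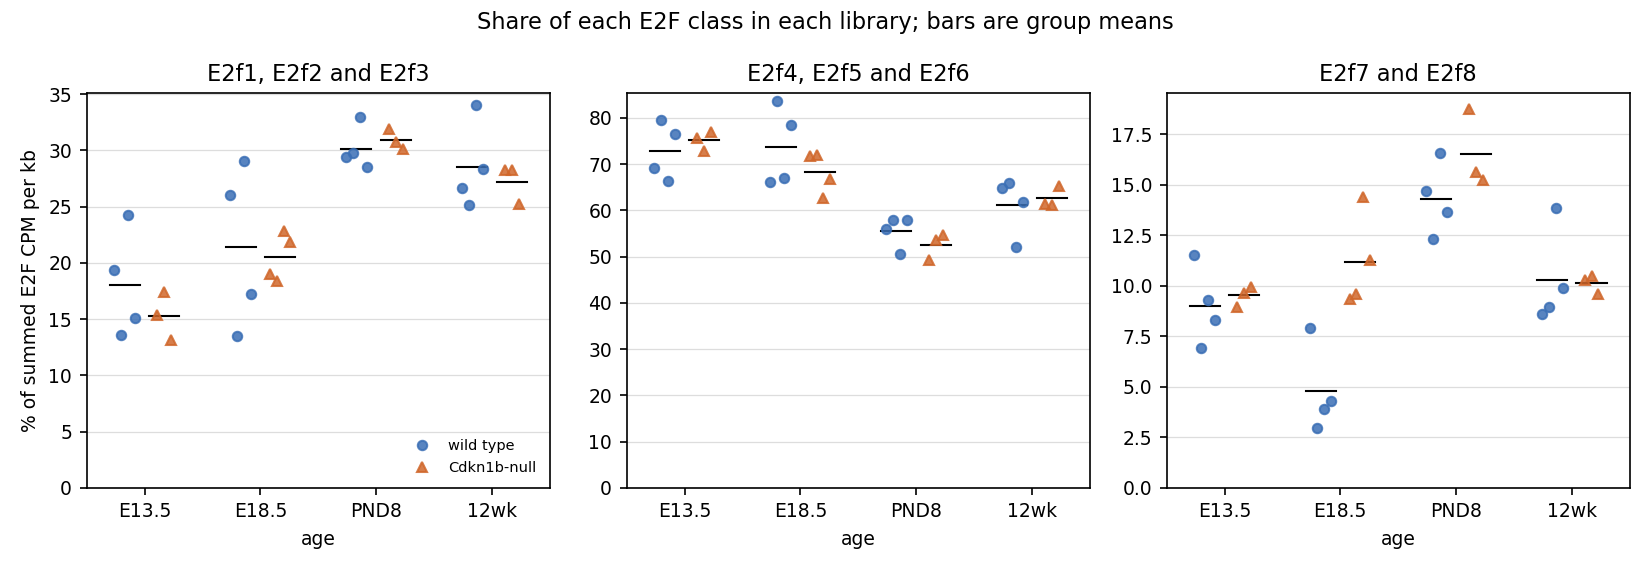
Share of each E2F class in the summed E2F level per kb of exon, in percent, with 1 point per library and bars for group means. In wild type the activator mean is 18.1% at E13.5 and 30.1% at PND8, and the share of E2f7 and E2f8 at E18.5 is 2.95% to 7.94% in wild type and 9.34% to 14.4% in Cdkn1b-null.

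Loss of p27Kip1 was then compared with wild type at each age. This asks whether the transcripts of the E2Fs respond when this kinase inhibitor is missing. The 2 atypical repressors had the largest positive differences, at E18.5, and no E2F gene passed the edgeR quasi-likelihood test with Benjamini-Hochberg adjustment at any age. In bulk samples more cells of a type and more RNA per cell cannot be told apart. At E18.5 E2f7 was at 7.45, 11.3, 15.1 and 10.9 CPM in the 4 Cdkn1b-null libraries, against 8.14, 2.80, 3.30 and 4.67 CPM in wild type. Apart from wild-type replicate 1, every wild-type library was below every Cdkn1b-null library. The red blood cell marker sum was 7718 CPM in that replicate and 10940 CPM in wild-type replicate 3, where E2f7 was at 3.30 CPM. The difference was 2.32-fold (log2 fold change 1.21, SE 0.330, 95% confidence interval 0.49 to 1.94, adjusted p = 0.0589, with an unadjusted edgeR p of 0.00351). E2f8 was at 15.4, 12.5, 28.1 and 13.0 CPM in Cdkn1b-null against 13.2, 4.51, 9.13 and 5.71 CPM in wild type. Again only wild-type replicate 1 reached into the Cdkn1b-null range. Its difference was 2.08-fold (log2 fold change 1.06, SE 0.361, interval 0.26 to 1.86, adjusted p = 0.123, with an unadjusted edgeR p of 0.0143).

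Whether these differences pass depends on the libraries and the tool. Of 8 edgeR fits that each left out 1 library, 1 called both genes, the fit without wild-type replicate 1. The log2 fold changes there were 1.6 and 1.39 (adjusted p = 0.0102 and 0.0423). Over the 8 fits they ran from 1.04 to 1.6 for E2f7 and from 0.73 to 1.39 for E2f8. The adjusted p reached 0.183 and 0.303. When edgeR blocked on replicate number, E2f8 was called (1.09, adjusted p = 0.025) and E2f7 was not (1.29, adjusted p = 0.0985). DESeq2 called both with all libraries (adjusted p = 0.00333 and 0.0182), and edgeR called both with the red blood cell markers as a covariate (1.29 and 1.26, adjusted p = 0.0449 and 0.00586). Without the libraries that stand apart, which left 2 libraries of each genotype, the differences were 1.56 and 1.32 (adjusted p = 0.0873 and 0.0833). Markers of some other cell types differed between genotypes at the same age. The summed theca and luteal markers were at 161 to 282 CPM in wild type and 304 to 405 CPM in Cdkn1b-null, with 1 of 6 tested markers called higher (Hsd3b1, 0.75), although only 3 of the 6 had a positive log2 fold change and their median was 0.07. The granulosa markers were at 491 to 646 and 585 to 823 CPM, with 2 of 7 called higher (Inha 1.14 and Cyp19a1 2.51), 3 of 7 positive and a median of -0.11. The meiotic germ cell markers were at 670 to 1374 and 461 to 907 CPM, with 1 of 7 called lower (Rec8, -1.36), none positive and a median of -0.78, and the stromal markers at 2072 to 3652 and 1805 to 3110 CPM, with 2 of 8 called lower (Nr2f2 -0.52 and Tcf21 -0.78), none positive and a median of -0.47. No marker of the oocyte, endothelial, leukocyte, red blood cell, oviduct, surface epithelium or mesonephros lists was called at E18.5. The medians of these lists were, in this order, -0.53, 0.108, -0.285, -0.859, 0.076, -0.164 and 0.463. Positive were 1 of 7, 6 of 8, 1 of 6, 0 of 7, 3 of 6, 2 of 8 and 5 of 6 tested markers. The called markers are named after their values were seen. Of the markers in the theca, granulosa, meiotic and stromal lists, Stra8, Fshr, Cyp11b1 and Insl3 were at 0 counts in at least 1 library at E18.5. The part of these cell types in the E2f7 and E2f8 differences was not tested.

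The other members differed less between genotypes at E18.5. E2f1 was at 6.95, 8.36, 7.29 and 8.21 CPM in wild type and 8.06, 10.0, 7.93 and 10.1 CPM in Cdkn1b-null, overlapping, with a log2 fold change of 0.20 (95% confidence interval -0.18 to 0.57, adjusted p = 0.526). E2f3, E2f4 and E2f6 had log2 fold changes of 0.03, -0.21 and -0.07, with intervals of -0.33 to 0.38, -0.75 to 0.32 and -0.41 to 0.28 (adjusted p = 0.941, 0.639 and 0.842). E2f5 was at 32.1 ± 4.30 CPM in wild type and 26.6 ± 3.91 in Cdkn1b-null (SD, n = 4 each, log2 fold change -0.30, interval -0.62 to 0.01, adjusted p = 0.242). At the other ages the E2F gene with the smallest p was E2f7 at PND8. E2f7 at PND8 was at 55.9, 45.4 and 41.4 CPM in Cdkn1b-null against 37.2, 33.6, 45.2 and 33.0 CPM in wild type (log2 fold change 0.34, SE 0.129, interval 0.05 to 0.63, adjusted p = 0.264, with an unadjusted edgeR p of 0.0275). Wild-type replicate 3 reached into the Cdkn1b-null range. The remaining log2 fold changes at PND8 ran from -0.14 (E2f4) to 0.17 (E2f8). Those at 12wk ran from -0.23 (E2f3, SE 0.101, adjusted p = 0.524) to 0.21 (E2f1), with E2f6 at 0.19 (SE 0.087, adjusted p = 0.533), and those at E13.5, E2f2 aside, from -0.30 (E2f4) to 0.01 (E2f5).

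In counts, 0 of 8 members passed at each of the 4 ages in edgeR (from E13.5 to 12wk), where 0.00606%, 4.99%, 0.349% and 0.0115% of all genes tested passed. At an unadjusted edgeR p under 0.05 the members numbered 0, 2, 1 and 0, where 3.49%, 22.1%, 15% and 9.63% of all genes were. DESeq2 called 0, 2, 0 and 0 members. The genotype by age interaction was tested over all 29 libraries. It called 0 members in edgeR and 0 in DESeq2 (0.806% of all genes passed in edgeR). Before adjustment 2 members were under 0.05 in edgeR (12.7% of all genes were), E2f7 (adjusted p = 0.258, unadjusted p of 0.0148) and E2f8 (adjusted p = 0.331, unadjusted p of 0.0297). The genotype difference of E2f7 was larger at E18.5 than at E13.5 by 1.28 on the log2 scale (SE 0.394, adjusted p = 0.154 in edgeR, unadjusted p of 0.00324), and that of E2f8 by 1.08 (SE 0.408, adjusted p = 0.282, unadjusted p of 0.0136). From E18.5 to PND8 it changed by -0.87 for E2f7 (SE 0.386, adjusted p = 0.533, unadjusted p of 0.0333) and by -0.89 for E2f8 (SE 0.403, adjusted p = 0.54, unadjusted p of 0.0369). From PND8 to 12wk no member was under 0.05 before adjustment. These 3 changes between consecutive ages called 0 members each in edgeR and in DESeq2, where 0.653%, 0.329% and 0.0246% of all genes passed in edgeR. Under 0.05 before adjustment were 2, 2 and 0 members, beside 11.4%, 8.74% and 7.47% of all genes.

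**Figure D3:**
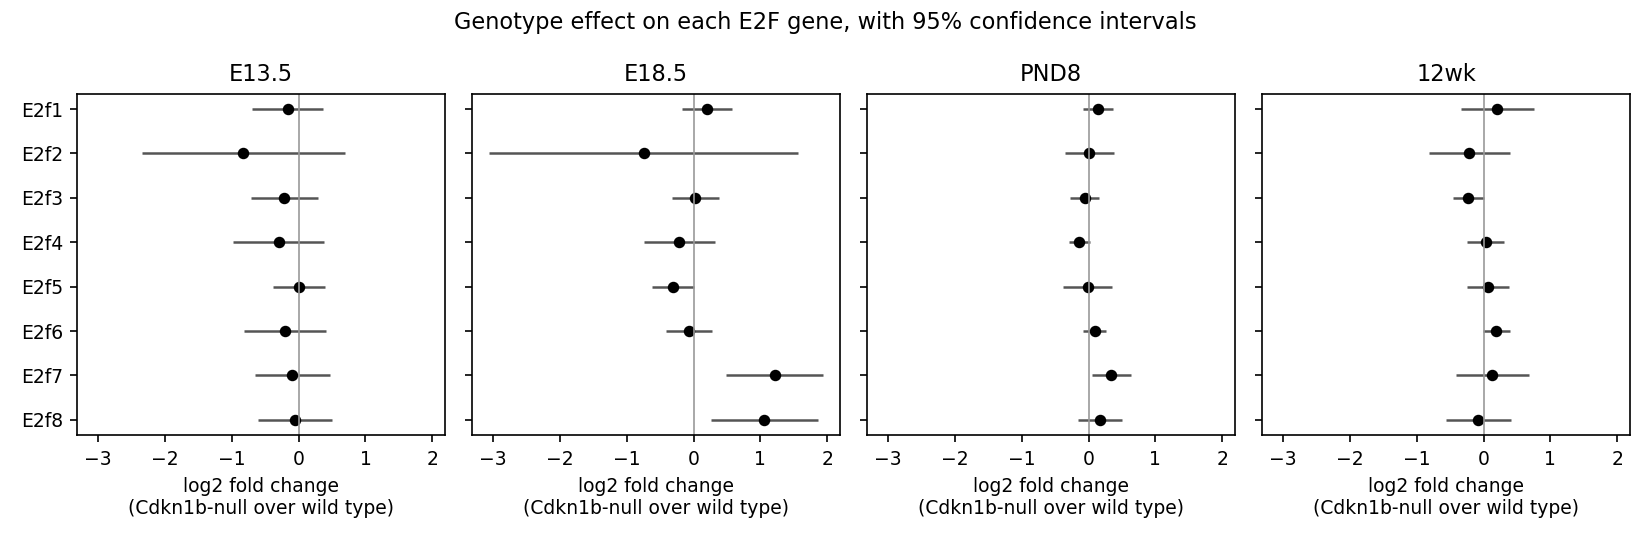
Log2 fold change of each E2F gene between Cdkn1b-null and wild type (x axis) at each age, with 95% confidence intervals as lines. Only at E18.5 for E2f7 (0.49 to 1.94) and E2f8 (0.26 to 1.86) and at PND8 for E2f7 (0.05 to 0.63) does the interval leave out 0, and the E2f2 intervals are the widest at both fetal ages.

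E2f2, an activator that also has a known role in the last divisions of red blood cell precursors, spread most between libraries of one group at the fetal ages. At E13.5 it was at 13.5, 11.9, 52.5 and 8.44 CPM in wild type and 12.2, 17.8 and 7.97 CPM in Cdkn1b-null. At E18.5 it was at 33.6, 3.15, 51.0 and 4.92 CPM in wild type and 13.4, 6.66, 28.5 and 7.50 CPM in Cdkn1b-null. In each of the 3 groups that hold them, the libraries with high red blood cell marker sums (97970, 7718, 10940, 6854 and 4426 CPM) had the highest E2f2 values (52.5, 33.6, 51.0, 13.4 and 28.5 CPM). Cdkn1b-null replicate 3 at E13.5 was at 17.8 CPM, the highest of its group, with a lower sum of 3213 CPM. After birth, where these sums were at most 319 CPM, E2f2 was at 16.7 to 26.3 CPM at PND8 and 9.67 to 21.6 CPM at 12wk over both genotypes, so E2f2 was also measured where these sums were low. The pattern was not particular to E2f2. In the same 3 fetal groups the libraries with high sums also had the highest values of 2 other members. These were E2f4 (46.0, 25.1, 38.7, 23.4 and 32.2 CPM) and E2f8 (26.0, 13.2, 9.13, 15.4 and 28.1 CPM). The part of red blood cells in the levels of E2f2, E2f4 and E2f8 was not tested. The genotype difference of E2f2 at E18.5 was -0.75 with all libraries (95% confidence interval -3.06 to 1.56, adjusted p = 0.697), 0.81 without the libraries that stand apart (adjusted p = 0.293) and 0.19 with the markers as a covariate (adjusted p = 0.805). At E13.5 it was -0.83 (interval -2.35 to 0.69, adjusted p = 0.988), -0.15 and -0.08 in the same 3 fits (adjusted p = 1 and 0.998 in the last 2).

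The wild-type course of E2f2 also turned on these libraries. From E13.5 to E18.5 the log2 fold change was 0.07 with all libraries (adjusted p = 0.964) and -1.45 without those that stand apart (adjusted p = 0.0192). From E18.5 to PND8 it was -0.25 (adjusted p = 0.766) and 2.23 (adjusted p = 0.000126), and in Cdkn1b-null ovaries 0.51 (adjusted p = 0.357) and 1.46 (adjusted p = 0.000222). From PND8 to 12wk it was -0.43 in wild type (adjusted p = 0.216, and -0.70 with adjusted p = 0.019 without replicate 3 at 12wk). Once group means were removed, the highest Pearson r between members over the 29 libraries was 0.869, for E2f2 and E2f8. E2f2 and E2f4 followed at 0.716, and E2f7 and E2f8 at 0.704. These values share the library and its cell content and carry no test.

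**Figure D4:**
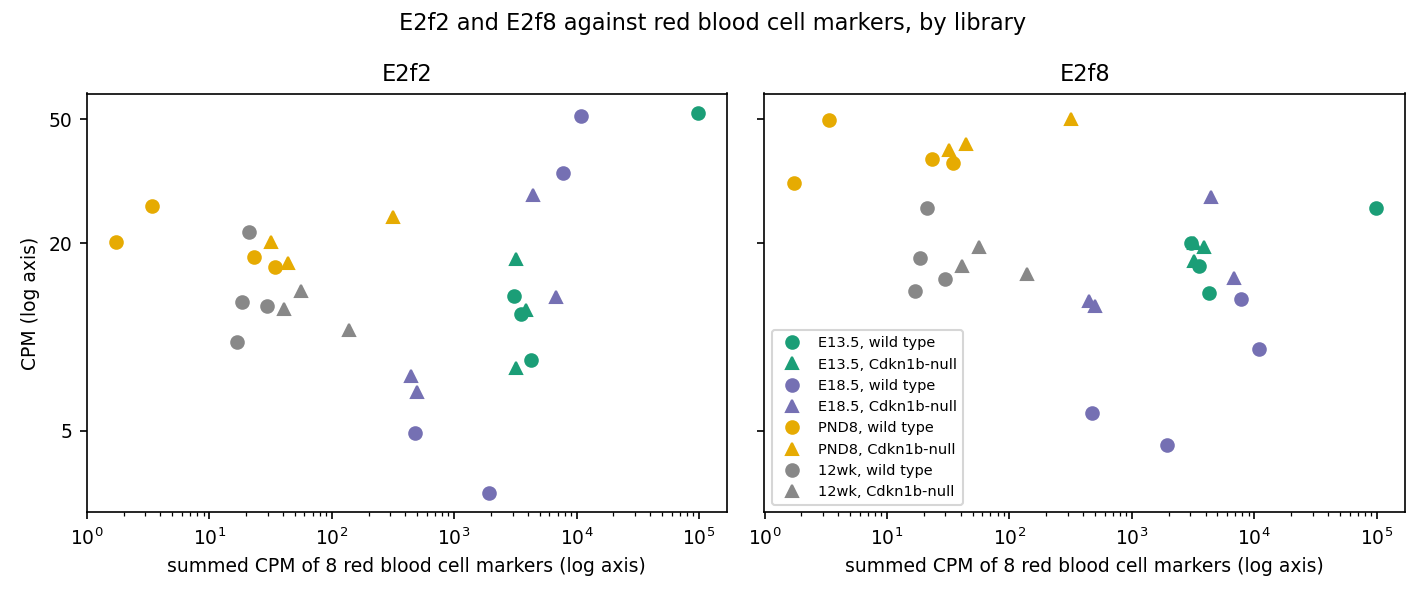
CPM of E2f2 (left) and E2f8 (right) against the summed CPM of 8 red blood cell markers, both on log axes, with 1 point per library, colours for age, circles for wild type and triangles for Cdkn1b-null. At the fetal ages the E2f2 points at 28.5 CPM and above lie at marker sums of 4426 CPM or more, while the postnatal points lie at 319 CPM or less with E2f2 between 9.67 and 26.3 CPM. Libraries with sums of 4426 CPM or more also had the highest E2f8 values of their groups.

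The partners of the E2Fs were compared next. Tfdp1 and Tfdp2 encode the DP proteins with which E2f1 to E2f6 pair to bind DNA. Tfdp1 rose in Cdkn1b-null ovaries at E18.5, from 63.4 ± 3.19 to 92.4 ± 8.59 CPM (SD, n = 4 each, log2 fold change 0.51, SE 0.099, adjusted p = 0.0149), a call lost without Cdkn1b-null replicate 3 (0.47, adjusted p = 0.0751) and without the libraries that stand apart (0.38, adjusted p = 0.31). In wild type Tfdp1 fell by 1.28 from E13.5 to E18.5 (adjusted p = 5.27e-05) and rose by 1.05 to PND8 (adjusted p = 2.48e-06). Tfdp2 had a log2 fold change of 0.12 between genotypes at E18.5 (adjusted p = 0.549). At E13.5, PND8 and 12wk the genotype log2 fold changes were 0.01, 0.04 and 0.11 for Tfdp1 and 0.06, 0.22 and 0.03 for Tfdp2 (adjusted p = 0.295 to 0.999). Of the pocket proteins, Rbl1 (p107), which is itself transcribed from an E2F-regulated promoter, rose in Cdkn1b-null ovaries at E18.5 from 28.6 ± 7.73 to 62.3 ± 5.61 CPM (SD, n = 4 each, 2.14-fold, log2 fold change 1.10, SE 0.172, adjusted p = 0.00517). Rb1 and Rbl2 (p130) were at -0.24 and 0.26 there (adjusted p = 0.475 and 0.335). At PND8 Rbl1 was at 57.6 ± 5.20 CPM in wild type and 75.0 ± 4.20 in Cdkn1b-null (SD, n = 4 and 3, log2 fold change 0.37, adjusted p = 0.082 in edgeR and 0.00415 in DESeq2), and past the threshold in edgeR without wild-type replicate 3 (0.42, adjusted p = 0.0437). Rb1 was at 0.40 and Rbl2 at 0.07 at PND8 (adjusted p = 0.201 and 0.859), and Rb1 too passed without wild-type replicate 3 (0.52, adjusted p = 0.0405). At E13.5 Rb1, Rbl1 and Rbl2 were at -0.28, 0.23 and 0.14 (adjusted p = 0.988 each), and at 12wk at -0.14, 0.31 and -0.32 (adjusted p = 0.74, 0.606 and 0.445).

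The genes that the E2Fs are known to control showed a difference between genotypes at E18.5 in 35 of 38 G1/S targets, all higher in Cdkn1b-null, where 4.99% of all genes passed, while 0 of the 3 activator E2Fs passed. The list median was 1.00 on the log2 scale against -0.04 over all 16322 genes tested. Chaf1b, a histone chaperone subunit of replicating chromatin, rose from 24.9 ± 3.71 to 65.3 ± 5.72 CPM (SD, n = 4 each, 2.57-fold, SE of the log2 fold change 0.126, adjusted p = 0.000654). The helicase subunits Mcm3 and Mcm4 rose 2.40-fold and 2.13-fold (adjusted p = 0.000654 and 0.000729), and Cdt1, which loads that helicase, 2.82-fold (adjusted p = 0.000729). The 3 targets not called were Cdc25a, Orc1 and Prim1, at 0.04, 0.61 and 0.64 (adjusted p = 0.869, 0.129 and 0.0717), chosen here after their values were seen. Of 18 G2/M genes 15 rose and 0 fell, with a median of 1.17. Among them were Cdc20 (3.00-fold, adjusted p = 4.56e-05), Plk1 (2.99-fold, adjusted p = 0.000955), Top2a (2.62-fold, adjusted p = 0.000955) and Bub1b (2.33-fold, adjusted p = 0.00161), which act in mitosis. Foxm1, Mki67 and Cenpf were not called, at 0.60, 0.68 and 0.66 (adjusted p = 0.134, 0.119 and 0.0867), and are named after their values were seen. Without the libraries that stand apart, 18 of 38 G1/S and 11 of 18 G2/M genes were called, all higher, with medians of 1.10 and 1.42. Leaving out Cdkn1b-null replicate 3 left 23 G1/S genes called, and leaving out wild-type replicate 4 left 10 G2/M genes. The meiotic and stromal markers, none of which had a positive log2 fold change, and the called theca and granulosa markers given above differed between the same libraries, and their part was not tested. Both lists were chosen with earlier results of these data known, so their direction is no independent evidence.

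**Figure D5:**
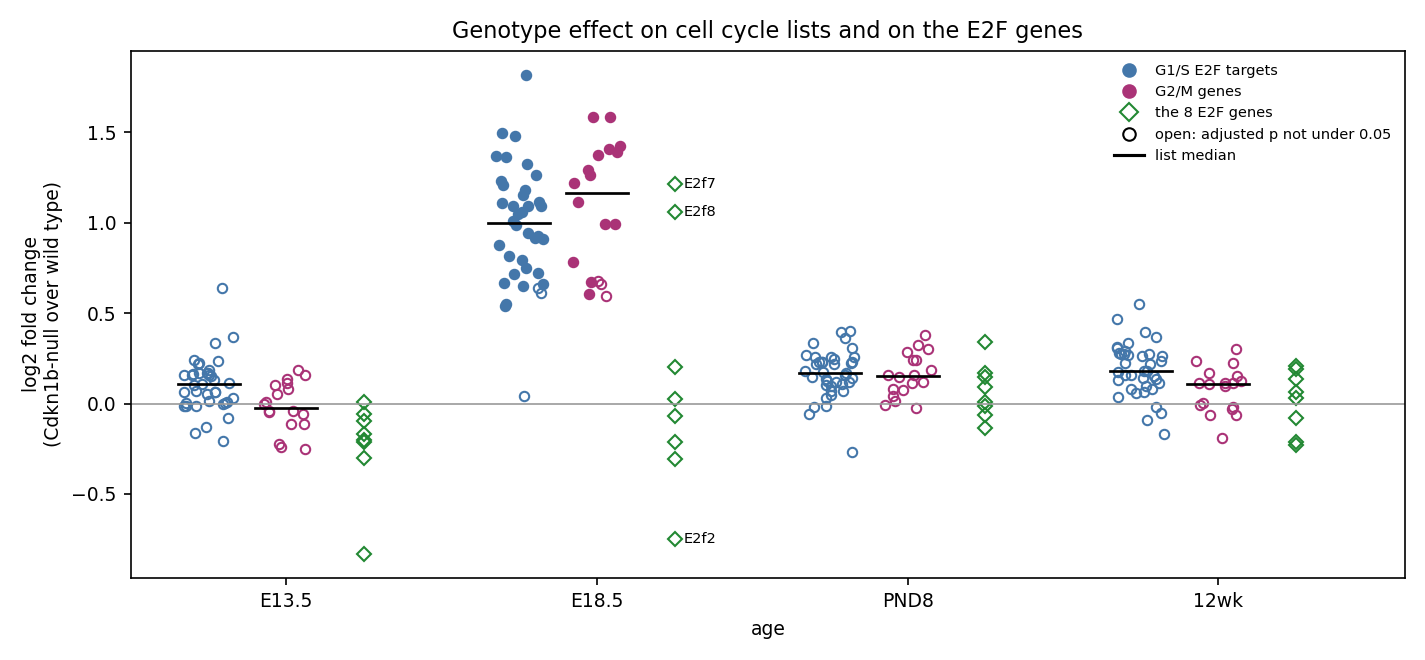
Log2 fold change between Cdkn1b-null and wild type (y axis) for 38 G1/S targets, 18 G2/M genes and the 8 E2F genes at each age (x axis), with filled points for genes past the threshold and lines for list medians. At E18.5 the medians are 1.00 and 1.17 and E2f7 (1.21) and E2f8 (1.06) lie beside them, while the other 6 E2F genes lie between -0.75 and 0.20.

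At the other ages no gene of either list passed in edgeR. At PND8 17 of 38 G1/S targets and 5 of 18 G2/M genes were under 0.05 before adjustment, where 15% of all genes were. Their medians were 0.17 and 0.15, and DESeq2 called 4 and 0. Pola1 and Chek1 had the smallest p among the G1/S targets, at 0.40 and 0.36 (adjusted p = 0.0537 and 0.0766 in edgeR). Bub1 and Cenpe led the G2/M genes at 0.33 and 0.30 (adjusted p = 0.214 and 0.237). At 12wk the medians were 0.18 and 0.11, with 3 and 0 genes under 0.05 before adjustment (9.63% of all genes) and 0 and 0 called by DESeq2. Prim1 and Ccne2 were at 0.47 and 0.55 (adjusted p = 0.408 and 0.468), and Cdk1 and Cenpe at 0.30 and 0.22 (adjusted p = 0.606 and 0.701). At E13.5 the medians were 0.11 and -0.02, with 2 and 0 under 0.05 before adjustment (3.49% of all genes) and 0 and 0 called by DESeq2. Ccne2 and Gins2 were at 0.64 and 0.37 there (adjusted p = 0.988 each), and Ccnb2 and Cenpe at 0.19 and -0.25 (adjusted p = 0.988 each).

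Over age in wild type, most of the 38 G1/S targets fell, rose and fell again. From E13.5 to E18.5 0 rose and 35 fell (median -1.29, where 34% of all genes passed), and from PND8 to 12wk 0 rose and 36 fell (median -0.85, 30.5% of all genes). In between, from E18.5 to PND8, 25 rose and 4 fell (median 0.78), a share called that is near the 74.6% of all genes. Those that fell into PND8 included Slbp (-1.94), Ccne2 (-1.85) and Rfc3 (-0.45), named after their values were seen. In Cdkn1b-null ovaries 0 rose and 19 fell over the first step (median -0.37, 30.2% of all genes passed), 12 rose and 18 fell over the second (median -0.12, near the 77.4% of all genes), and 0 rose and 36 fell over the third (median -0.83, 29.1%). The first of these counts was 6 without the libraries that stand apart.

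The other complexes that use E2Fs showed few differences between genotypes. Of the MuvB complex, which joins pocket proteins and E2f4 in resting cells, Lin9 rose at E18.5 from 18.8 ± 2.99 to 30.0 ± 2.47 CPM (SD, n = 4 each, log2 fold change 0.64, adjusted p = 0.0223), as 1 of 6 genes, where 4.99% of all genes passed. That call was lost in 5 of 8 fits that left out 1 library and without the libraries that stand apart (0.78, adjusted p = 0.153). Of 10 genes of the E2f6 Polycomb complex, L3mbtl2 rose, from 29.6 ± 2.18 to 44.0 ± 7.18 CPM (SD, n = 4 each, 0.54, adjusted p = 0.0449), as the only one called, and its call was lost in 6 of 8 such fits and without the libraries that stand apart (0.67, adjusted p = 0.157). At the other ages 0 genes of either complex were called in edgeR or DESeq2. Before adjustment 0, 2 and 2 MuvB genes and 0, 2 and 0 Polycomb complex genes were under 0.05 at E13.5, PND8 and 12wk. Of all genes 3.49%, 15% and 9.63% were under it at these ages. The smallest p at E13.5 belonged to Lin9 (0.28), Rbbp4 (0.13), Rybp (-0.55) and Mga (-0.30), at PND8 to Lin9 (0.32), Lin54 (0.29), Rnf2 (0.17) and Mga (0.23), and at 12wk to Lin54 (0.42), Lin52 (0.34), Rnf2 (0.22) and Yaf2 (0.14), with adjusted p of 0.159 to 0.988.

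Germ-line genes known as targets of E2f6 or its complex fell after birth. From E18.5 to PND8, as E2f6 rose 4.57-fold in wild type, 10 of 10 tested fell (median log2 fold change -4.05), and in Cdkn1b-null 11 of 11 (median -4.02), where 74.6% and 77.4% of all genes passed. From PND8 to 12wk, where E2f6 itself fell by 0.44 in wild type, 8 of 9 tested fell again (median -3.30). In Cdkn1b-null 9 of 9 fell over that step (median -4.52), where 30.5% and 29.1% of all genes passed. From E13.5 to E18.5 in wild type 5 of 11 rose and 4 fell (median -0.28, 34% of all genes passed). The summed meiotic germ cell markers, several of which are in this list, were at 670 to 1374 CPM at E18.5 and at 20.8 to 43.4 CPM at PND8 in wild type. The part of E2f6 in these changes was not tested. Between genotypes 0 of 10 tested were called at E18.5 in edgeR (median -0.47, 1 under 0.05 before adjustment against 22.1% of all genes, 1 called by DESeq2). Ddx4, a germ cell RNA helicase, was at 45.9 ± 9.41 and 30.5 ± 7.32 CPM (SD, n = 4 each, -0.62, adjusted p = 0.0888 in edgeR and 0.04 in DESeq2), and Sycp3, a meiotic chromosome axis protein, at -0.78 (adjusted p = 0.247). At E13.5 0 of 11 were called in edgeR or DESeq2. Before adjustment 2 were under 0.05 (3.49% of all genes were), Sycp3 (12.3 ± 0.758 and 43.1 ± 45.5 CPM, SD, n = 4 and 3, log2 fold change 1.76) and Taf7l (1.41, adjusted p = 0.988 each). Their Cdkn1b-null spread includes replicate 3 with its high meiotic markers. At PND8 and 12wk 0 of 9 and 0 of 4 tested were called in edgeR, 0 and 0 by DESeq2, and 0 and 0 were under 0.05 before adjustment. The leading values were at PND8 Tdrkh and Tuba3a at 0.40 and 0.56 (adjusted p = 0.402 and 0.648), and at 12wk Ddx4 and Tdrkh at -0.95 and 0.29 (adjusted p = 0.669 and 0.869). Regulators of multiciliated cells, which use E2f4 or E2f5, had 0 called between genotypes at any age in edgeR. From E13.5 to 12wk 0, 2, 1 and 1 of them were under 0.05 before adjustment, where 3.49%, 22.1%, 15% and 9.63% of all genes were. DESeq2 called 0, 1, 0 and 1 of them. Their leading values were Rfx3 (-0.34) and Deup1 (0.75) at E13.5, Myb (1.07, adjusted p = 0.102 in edgeR and 0.0281 in DESeq2) and Deup1 (0.69) at E18.5, Rfx3 (0.30) and Deup1 (0.89) at PND8, and Ccno (-3.35, adjusted p = 0.445 in edgeR and 0.0242 in DESeq2) and Deup1 (0.44) at 12wk.

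Finally, the genes whose log2 CPM over the 29 libraries was most like that of each member were listed by Pearson r among 12193 genes. For E2f1 they were Topbp1 (0.985), Foxm1 (0.979) and Ahcy (0.972), and for E2f2 Xpo7 (0.904), Abcb10 (0.86) and Tmcc2 (0.859). E2f3 was most like Eif4g1 (0.983), Dpysl5 (0.979) and Plekha7 (0.975), and E2f4 most like Dapk3 (0.93), Fam220a (0.915) and Pank2 (0.911). E2f5 came closest to Sohlh2 (0.959), Ctnnbip1 (0.952) and Crabp1 (0.95), and E2f6 to Trim28 (0.984), Ptbp1 (0.981) and Ncoa5 (0.98). The closest to E2f7 were Ncapd2 (0.98), Senp1 (0.976) and Prr11 (0.964), and those to E2f8 Arhgap11a (0.952), Incenp (0.943) and Kif14 (0.935). The libraries fall into age groups, which all of these values share, so they describe a common course over age and carry no test.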

How the data were processed

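Per the file headers and the submitters' processing notes, the authors quantified each library with RSEM 1.3.0 (the notes also name STAR 2.5.2, FastQC 0.11.5 and Trim Galore) and deposited gene-level expected counts, estimated read counts of which 31.4% of the values above 0 were not whole. Genome build and Ensembl release are not given in the sources used here. These expected counts were rounded to integers, and symbols were matched by ID for 51633 of 51912 genes. Each comparison was fitted on all genes passing filterByExpr (minimum count 10, minimum total 15) with edgeR 4.0.16 in R 4.3.3, with TMM scaling and the quasi-likelihood F test (robust), on the samples of the groups compared (all 29 for the interaction). Called means a Benjamini-Hochberg adjusted p under 0.05 over all genes tested. Ages were compared between consecutive ages within a genotype. The steps were tested on simulated data. Replicate pairs within groups (39) all differed by more than sampling noise.

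The members and all lists were chosen with earlier results of these data known. The genes named are all 8 members, the DP and pocket genes, for each other list and genotype comparison up to 4 called genes with the smallest p (else up to 2), and the 3 genes most like each member. Alternatives were RLE size factors, no filter on low counts, DESeq2 1.42.0, the replicate number as a block, leaving out each replicate, other lengths and the 7-letter motif word. Leaving out 6 libraries that stand apart and a red blood cell marker covariate were added after the data were seen. For a listed target, the individual value over age is not reported here.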

Additional observations from a re-analysis of the deposited data

Results flagged for a closer look

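In groups of 4 libraries, the gap between the library farthest from the rest and its nearest neighbour was divided by the range of the group (Dixon's ratio) and set against the critical value at 95%. Of 40 such groups of an E2F gene, 2 were over it, and chance gives about 1 in 20. E2f2 was at 52.46 CPM in wild-type replicate 3 at E13.5 against 8.44 to 13.5 CPM in the other 3 libraries (ratio 0.885). This library also had the red blood cell marker sum of 97970 CPM, and the part of that in its E2f2 level was not tested. E2f6 was at 44.99 CPM in wild-type replicate 1 at 12wk against 40.6 to 41.3 CPM in the others (ratio 0.839).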

How the results depend on the processing

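Under RLE size factors, DESeq2 and no filter on low counts no E2F gene changed direction in any comparison. At E18.5 the count of E2F genes called between genotypes was 0, and it was 1 with no filter (E2f7, adjusted p = 0.0296), 2 in DESeq2, 1 with the replicate block (E2f8, 1.09, adjusted p = 0.025), 2 with the red blood cell markers as a covariate, and 0 to 2 when single libraries were left out (2 without wild-type replicate 1). From E13.5 to E18.5 in wild type 3 were called, 5 in DESeq2 and 2 to 5 without single libraries. The Cdkn1b-null counts were 1 (1 to 2 without single libraries) from E13.5 to E18.5 and 6 (3 to 6) from PND8 to 12wk. Same-numbered libraries of the 2 genotypes had correlations of their deviations from the group means of -0.095 to 0.16 over 13 pairs. Of these 6 were over 0.1 and 5 were best with their own number, and at E18.5 they were 0.04 to 0.139. Replicates 1 and 3 of both genotypes also shared high red blood cell marker sums at E18.5. These values do not settle whether the numbers are pairs. The main fits left the numbers out, and the replicate block was an alternative. With the replicate block, E2f3 was no longer called in wild type from E13.5 to E18.5 (adjusted p = 0.0597), nor in Cdkn1b-null E2f5 from E18.5 to PND8 (0.125) or E2f2 and E2f6 from PND8 to 12wk (0.0541 and 0.0514), nor Rbl2 in wild type from E13.5 to E18.5 (0.0539) or Rbl1 in Cdkn1b-null over the last 2 steps (0.113 and 0.0654). With it, signs turned for E2f2 in wild type from E13.5 to E18.5 (-0.34) and from E18.5 to PND8 (0.47), Rb1 from E13.5 to E18.5 (0.017), Tfdp2 between genotypes at 12wk (-0.051), and the change of the genotype difference of E2f4 and E2f6 from E13.5 to E18.5 (-0.031 and -0.018) and of E2f1 from PND8 to 12wk (-0.046). Without the libraries that stand apart, signs turned between genotypes at E13.5 for E2f6 (0.056), E2f7 (0.22), E2f8 (0.14, and 0.086 with the covariate), Rbl2 (-0.034), Cenpe (0.042), Rfx3 (0.007) and Deup1 (-0.12), and at E18.5 for E2f2 (0.81, and 0.19 with the covariate) and E2f3 (-0.021). They also turned from E13.5 to E18.5 in wild type for E2f1 (0.12), E2f2 (-1.45) and Rb1 (0.25) and in Cdkn1b-null for E2f2 (-0.52) and Rb1 (-0.13), from E18.5 to PND8 in wild type for E2f2 (2.23), and for the change of the genotype difference of E2f4 (-0.078), E2f6 (-0.15) and E2f2 (-0.79 from E18.5 to PND8). Leaving out single libraries turned the sign of these values, over these ranges. Between genotypes at E13.5 they were E2f2 (-1.14 to 0.18), E2f5 (-0.092 to 0.11), E2f7 (-0.21 to 0.086), E2f8 (-0.19 to 0.18), Tfdp2 (-0.012 to 0.20), Tfdp1 (-0.046 to 0.11) and Rbl2 (-0.016 to 0.26). Between genotypes at E18.5 they were E2f3 (-0.053 to 0.13), E2f4 (-0.41 to 0.037) and E2f6 (-0.14 to 0.036). Between genotypes at PND8 they were E2f2 (-0.12 to 0.15), E2f3 (-0.12 to 0.002), E2f5 (-0.14 to 0.12) and Rbl2 (-0.015 to 0.21). Between genotypes at 12wk they were E2f2 (-0.37 to 0.048), E2f4 (-0.047 to 0.081), E2f5 (-0.004 to 0.17), E2f8 (-0.20 to 0.12), Tfdp2 (-0.058 to 0.12) and Deup1 (-0.76 to 0.82). In wild type from E13.5 to E18.5 they were E2f2 (-0.66 to 1.03) and Rb1 (-0.12 to 0.18). In wild type from E18.5 to PND8 they were E2f2 (-0.59 to 0.50). In wild type from PND8 to 12wk they were E2f3 (-0.12 to 0.007), Tfdp2 (-0.071 to 0.081) and Rbl2 (-0.044 to 0.17). In Cdkn1b-null from E13.5 to E18.5 they were E2f2 (-0.47 to 0.47) and Rb1 (-0.14 to 0.15). All genes called between genotypes numbered, from E13.5 to 12wk, 1, 814, 62 and 2 in edgeR and 71, 1676, 741 and 298 in DESeq2, and without single libraries they ranged over 0 to 1, 246 (without Cdkn1b-null replicate 3) to 1372 (without wild-type replicate 2), 0 (without Cdkn1b-null replicate 3 or 4) to 147 (without wild-type replicate 3) and 0 to 3. They numbered 112 at E18.5 without the libraries that stand apart and 1240 with the covariate, 258 and 12 at PND8 and 12wk with no filter, and 8 and 10 there with the replicate block. The interaction called 164 genes (708 in DESeq2, 74 without those libraries), and the changes between ages 133, 67 and 5 (410, 175 and 133 in DESeq2, and for the last 2, 5 and 11 with the replicate block). From E13.5 to E18.5 in Cdkn1b-null 5018 genes were called and 2437 without those libraries, and from PND8 to 12wk 5071 and down to 2642 without replicate 3 at PND8. The activator share by the longest transcript was 25.8%, 26.2%, 24.2% and 23.0% in wild type and Cdkn1b-null at PND8 and then at 12wk. The cause of these changes was not tested, and every E2F value lay above the 3-count floor.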

Other observations

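The partners of the E2Fs had courses of their own over age. From E18.5 to PND8 in wild type Rb1, Rbl1 and Rbl2 rose by 1.16, 0.93 and 1.29 on the log2 scale (edgeR, adjusted p = 3.4e-05, 0.000485 and 8.68e-05), beside the rise of E2f4, which works with Rbl1 and Rbl2. In Cdkn1b-null ovaries the same step was a rise of 1.81 for Rb1 (13.9 ± 3.45 to 50.6 ± 4.02 CPM, SD, n = 4 and 3, adjusted p = 2.82e-06), 1.12 for Rbl2 (adjusted p = 2.1e-07) and 0.22 for Rbl1 (adjusted p = 0.032, lost in 5 of 7 fits that left out 1 library). From E13.5 to E18.5 Rbl1 rose by 0.58 in Cdkn1b-null (adjusted p = 0.00378), a call lost without the libraries that stand apart (0.44), and was at -0.30 in wild type (adjusted p = 0.262, and -0.64 with adjusted p = 0.0462 without those libraries). Tfdp1 fell by 0.53 from PND8 to 12wk in wild type and by 0.46 in Cdkn1b-null (adjusted p = 0.000428 and 0.00665).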
